A study of Mus musculus with 4 samples.

Results

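The 5 receptor genes were followed through the striatum of a Huntington's disease knock-in series: the adenosine receptor genes Adora2a and Adora1 and the orphan receptor genes Gpr6, Gpr52 and Gpr149. They were taken by gene symbol from a table of 29144 features, each symbol matching 1 row, and all 5 passed the filter of a mean FPKM (fragments per kilobase of transcript, scaled to library depth) of at least 1, which left 12864 named genes tested. Poly A+ RNA of dissected, flash-frozen striatum from mice aged 21 weeks on the C57BL/6J background was sequenced in 1 library per genotype. Mutant mice were homozygous (HDQ150/150 or HDQ200/200) or heterozygous (HDQ315/+), and HDQ+/+ was the wild type; the numbers are the names of the huntingtin alleles. The step to HDQ315/+ therefore changes the allele and the number of mutant copies together. How many animals each library holds, whether they were pooled, and their sex were not stated. With no replicate libraries there is no spread between animals, no test and no p-value, and every 95% interval covers counting error only.

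Adenosine is a neuromodulator that builds up with neuronal activity and wakefulness, and its receptors are the main targets of caffeine. The A2A receptor, encoded by Adora2a, couples to stimulatory G proteins and raises cyclic AMP, and in the striatum it is concentrated in the projection neurons of the indirect pathway, where it opposes the D2 dopamine receptor. The A1 receptor, encoded by Adora1, couples to inhibitory G proteins, lowers cyclic AMP and is found on neurons throughout the brain. Gpr6 and Gpr52 encode orphan receptors that raise cyclic AMP and are enriched in indirect pathway neurons, and Gpr52 has also been described as a modulator of huntingtin protein levels. Gpr149 encodes an orphan receptor studied in mice mainly in the ovary.

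The libraries held between 25058814 and 36877653 fragments assigned to features, fewest in HDQ150/150 and most in HDQ+/+. All 17 markers shared by striatal projection neurons were above 0 in every library, and Ppp1r1b, which encodes the signalling protein DARPP-32, stood at 425 FPKM in HDQ150/150, 293 in HDQ200/200 and 602 in HDQ315/+, against 830 in HDQ+/+. The libraries also differed in genes of neighbouring tissue. The 8 choroid plexus markers, mostly the transthyretin gene Ttr, summed to 68.7, 55.0 and 315 FPKM in HDQ150/150, HDQ200/200 and HDQ315/+, against 1567 FPKM in HDQ+/+, the 11 cortical markers, mostly Nrgn, to 1251, 654 and 939 against 951 FPKM, and the 8 thalamic markers to 26.1, 31.8 and 129 against 25.6 FPKM. The cortical sum follows Nrgn, at 928, 471 and 811 against 853 FPKM, and is not read here as an amount of cortical tissue. Slc17a7, the next most abundant of the 11, stood at 199, 106 and 71.7 against 57.0 FPKM. Of the 11 cortical markers, 8 were higher and 1, Nrgn, lower by at least 1.5-fold in HDQ200/200. Among all tested genes 5.38% were higher and 8.8% lower there. Htt, the gene altered in these mice, stood at 4.42, 7.68 and 4.78 FPKM against 7.56 FPKM; the altered repeat itself cannot be read from a level. HDQ200/200 stood apart in a dependence of its changes on transcript length, 1824 genes differing from HDQ+/+ by at least 1.5-fold as deposited and 925 after correction for length.

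Adora2a had the highest level of the 5 genes in every library, and it was lower in all 3 mutant libraries. It lies on chromosome 10 (mm10, 75316943 to 75334788). Its level was 57.7 FPKM in HDQ150/150, 51.7 FPKM in HDQ200/200 and 76.8 FPKM in HDQ315/+, against 139 FPKM in HDQ+/+, from 3694, 4758, 5738 and 13736 fragments. No mutant library came near the wild type, and the counting intervals of the 4 libraries did not overlap, the closest pair being 50.2 to 53.2 FPKM in HDQ200/200 and 55.8 to 59.5 FPKM in HDQ150/150. The log2 ratio of FPKM + 1 to HDQ+/+, a scale that understates changes of low genes, was −1.26 in HDQ150/150, −1.41 in HDQ200/200 and −0.85 in HDQ315/+. Of the 12864 tested genes, 41, 43 and 91 had a lower ratio in those comparisons. On the scaled counts, which do not pass through the length model of the FPKM, the ratios to HDQ+/+ were 0.438 (95% interval 0.422 to 0.454), 0.397 (0.384 to 0.410) and 0.604 (0.586 to 0.623).

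Adora1, on chromosome 1 (134193448 to 134235431), kept nearly the same level in the 4 libraries. It stood at 31.7 FPKM in HDQ150/150, 29.7 FPKM in HDQ200/200 and 31.5 FPKM in HDQ315/+, against 27.9 FPKM in HDQ+/+, from 4716, 6367, 5160 and 6442 fragments. All 3 mutant values lay slightly above the wild type, with log2 ratios of 0.18, 0.09 and 0.17, none of which reached 1.5-fold. The HDQ200/200 ratio turned to −0.21 after correction for transcript length, and the other 2 stayed above 0 at 0.24 and 0.32. Scaled-count ratios of 1.19 (1.15 to 1.24), 1.13 (1.09 to 1.17) and 1.16 (1.117 to 1.20) had intervals above 1, so that counting error alone did not cover these small differences, while the spread between animals is unknown. In order of level, HDQ150/150 (30.8 to 32.6 FPKM) and HDQ315/+ (30.6 to 32.3 FPKM) did not differ beyond counting error. The deposited coordinates of Adora1 are shared with Mybph, which overlaps it in the table and had between 1 and 9 fragments in each library.

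The balance between the 2 adenosine receptor genes can be read inside each library, where scaling between libraries cancels but a dependence on transcript length does not. The FPKM of Adora2a was 1.82 times that of Adora1 in HDQ150/150 (95% interval 1.74 to 1.90), 1.74 times in HDQ200/200 (1.67 to 1.804) and 2.44 times in HDQ315/+ (2.35 to 2.53), against 4.99 times in HDQ+/+ (4.85 to 5.14). These values are not corrected for transcript length. Length correction moved the HDQ200/200 log2 ratio of Adora1 from 0.09 to −0.21, and that of Adora2a from −1.41 to −1.38. The order of the 2 homozygous libraries in this balance is therefore not settled. By deposited level, Adora1 came after Adora2a, Gpr6 and Gpr52 in HDQ+/+, after Adora2a and Gpr6 in HDQ315/+, and after Adora2a alone in both homozygous libraries.

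**Figure D1:**
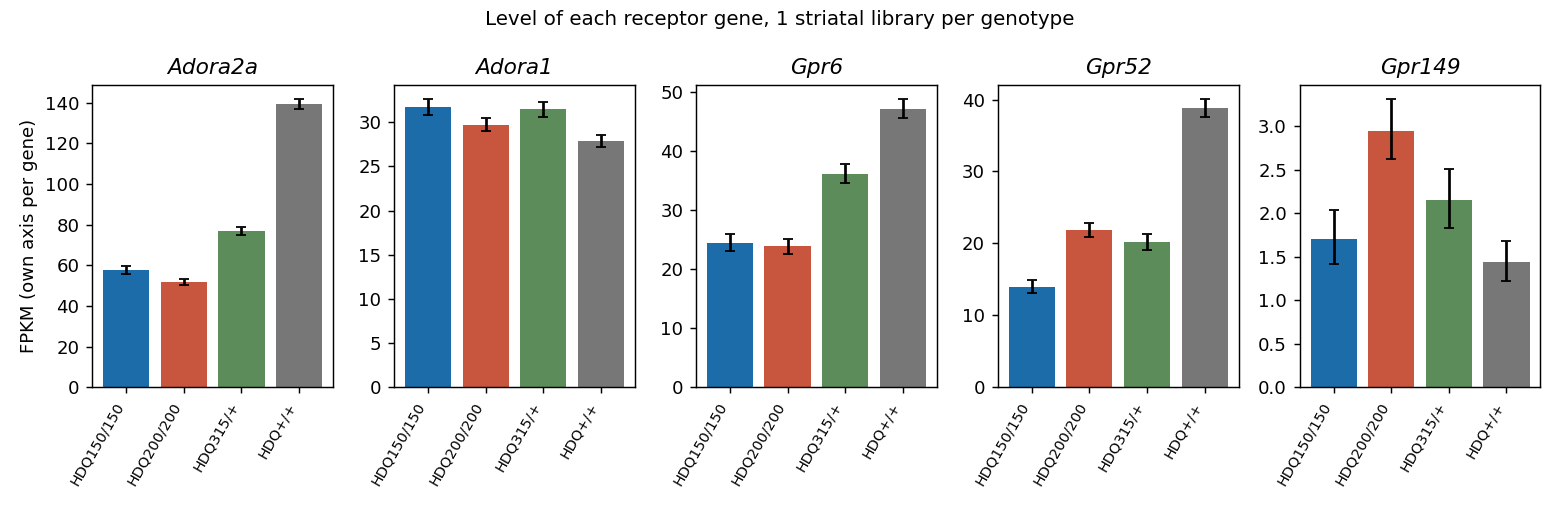
Level of Adora2a, Adora1, Gpr6, Gpr52 and Gpr149 in FPKM (vertical axis, from 0, scaled separately for each gene) in the libraries HDQ150/150, HDQ200/200, HDQ315/+ and HDQ+/+ (horizontal axis). Bars are 1 library each and error bars are 95% intervals for counting error; Adora2a, Gpr6 and Gpr52 have their highest bar in HDQ+/+ (139, 47.1 and 38.8 FPKM), Adora1 lies between 27.9 and 31.7 FPKM, and Gpr149 is highest in HDQ200/200 (2.95 FPKM).

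Gpr6 was lower in both homozygous libraries and under the fold size in HDQ315/+. It lies on chromosome 10 (41069259 to 41072405), and its level was 24.4 FPKM in HDQ150/150, 23.8 FPKM in HDQ200/200 and 36.2 FPKM in HDQ315/+, against 47.1 FPKM in HDQ+/+, from 1100, 1401, 1863 and 3353 fragments. The FPKM intervals of the 2 homozygous libraries overlapped (23.0 to 25.9 and 22.6 to 25.1 FPKM). Their scaled-count ratio, HDQ200/200 over HDQ150/150, was 0.897 (0.828 to 0.972), a small difference beyond counting error. HDQ315/+ lay between the homozygous libraries and the wild type. The log2 ratios to HDQ+/+ were −0.92, −0.95 and −0.37, and scaled-count ratios were 0.534 (0.498 to 0.572), 0.479 (0.450 to 0.510) and 0.804 (0.759 to 0.851). In HDQ315/+, 954 of the tested genes had a lower ratio than Gpr6, against 91 for Adora2a.

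Promoter sequence from RefSeq (GRCm38.p6) was matched for 2 of the 5 genes, Gpr6 and Adora1. Adora2a, Gpr52 and Gpr149 had no match and are not shown. The 2 sequences are shown because they were matched, not for their change in level. Each is the 250 bases before the transcription start, 5′ to 3′ on the strand of the gene, which is the minus strand for both, at chr10:41072291-41072540 for Gpr6 and chr1:134235458-134235707 for the upstream of 2 starts of Adora1. Capitals mark the cyclic AMP response element TGACGTCA in Gpr6 and the GC boxes, GGGCGG read on the opposite strand, in Adora1.
Gpr6: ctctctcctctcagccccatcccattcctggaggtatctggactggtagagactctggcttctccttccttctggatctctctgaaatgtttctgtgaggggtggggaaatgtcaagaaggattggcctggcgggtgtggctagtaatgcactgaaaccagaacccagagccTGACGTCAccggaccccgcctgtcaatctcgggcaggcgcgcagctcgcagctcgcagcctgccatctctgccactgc
Adora1: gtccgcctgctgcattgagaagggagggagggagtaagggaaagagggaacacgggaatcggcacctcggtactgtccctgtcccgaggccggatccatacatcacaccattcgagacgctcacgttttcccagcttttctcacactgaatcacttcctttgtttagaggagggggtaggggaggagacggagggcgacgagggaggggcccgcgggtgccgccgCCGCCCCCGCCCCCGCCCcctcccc
The cyclic AMP response element, its shorter core (the letters TGACG), the GC box, the E-box (the letters CANNTG) and the TATA box (the letters TATAAA) were searched on both strands. Gpr6 held the full response element once, with its first base at −78 from the start, a palindrome that also gives both matches of the core there, and held none of the other 3. The upstream Adora1 window held 3 adjoining GC boxes, at −25, −19 and −13, and none of the other motifs, and the second start of Adora1 (chr1:134234857-134235106) held 2 E-boxes only. Among 32851 promoter windows of this length, 1.55% held the full response element, 17.8% its core, 32.7% a GC box, 66.2% an E-box and 12.4% a TATA box. The matches describe letters in these windows and not binding, and a link to the levels was not tested.

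Gpr52 was lower in all 3 mutant libraries, most in HDQ150/150. Its level was 13.999 FPKM in HDQ150/150, 21.9 FPKM in HDQ200/200 and 20.2 FPKM in HDQ315/+, against 38.8 FPKM in HDQ+/+, from 946, 1844, 1338 and 4018 fragments. All mutant values were well under the wild type, and the FPKM intervals of HDQ200/200 (20.9 to 22.9) and HDQ315/+ (19.1 to 21.3) overlapped. The scaled-count ratio of HDQ315/+ to HDQ200/200 was 0.916 (0.853 to 0.983), a small difference beyond counting error. The log2 ratios to HDQ+/+ were −1.41, −0.80 and −0.91, and the scaled-count ratios 0.383 (0.356 to 0.411), 0.526 (0.497 to 0.556) and 0.482 (0.452 to 0.513). In HDQ150/150 only 33 of the tested genes had a lower ratio, in HDQ200/200 395 and in HDQ315/+ 65.

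The deposited interval of Gpr52 on chromosome 1 (160219174 to 160792938) is the one also given to Rabgap1l. RefSeq places Gpr52 itself at chr1:160574717-160579704 (GRCm38.p6), inside the stretch between 2 Rabgap1l exons of GENCODE M21 (160472112 to 160627214) and overlapping no Rabgap1l exon. Rabgap1l encodes a GTPase-activating protein that acts on Rab GTPases, and the table does not say whether reads were assigned by strand. Rabgap1l stood at 15.9 FPKM in HDQ150/150, 26.6 FPKM in HDQ200/200 and 13.3 FPKM in HDQ315/+, against 17.0 FPKM in HDQ+/+. It was thus higher in HDQ200/200 by 0.62 and under the fold size in the other 2 mutants (−0.09 and −0.33), and its part in the values of Gpr52 was not tested.

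Gpr149 was close to the filter, with a mean of 2.06 FPKM, and its 3 mutant values lay above the wild type. It lies on chromosome 3 (62529963 to 62605140) and stood at 1.70 FPKM in HDQ150/150, 2.95 FPKM in HDQ200/200 and 2.15 FPKM in HDQ315/+, against 1.44 FPKM in HDQ+/+, from 121, 288, 161 and 159 fragments. HDQ200/200 was the highest library, and HDQ150/150 did not differ from HDQ+/+ beyond counting error. The log2 ratios were 0.15, 0.69 and 0.37, of which only HDQ200/200 reached 1.5-fold, and that call ended after correction for GC content (0.57). Scaled-count ratios were 1.24 (0.969 to 1.58), 2.08 (1.70 to 2.54) and 1.46 (1.17 to 1.84).

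Set against all tested genes, the receptor genes split into 3 that were lower and 2 that were not. In HDQ150/150, 3 of the 5 were lower and none higher, where 3.34% of the tested genes were lower and 2.99% higher (6.34% in either direction); the median of the 5 was −0.92 against −0.0045 over all tested genes. In HDQ200/200, 3 were lower and 1 higher, where 8.8% of tested genes were lower and 5.38% higher (14.2% in all), with medians of −0.80 and −0.05. In HDQ315/+, 2 were lower and none higher, where 2.13% were lower and 2.92% higher (5.05% in all), with medians of −0.37 and 0.04. Adora2a and Gpr52 were lower in all 3 mutants, as were 0.591% of the tested genes (76), none of the 5 was higher in all 3, as 0.202% were, while Adora1 was under 1.5-fold in all 3, as were 79.9%. These comparisons share the HDQ+/+ library and are not independent of each other.

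**Figure D2:**
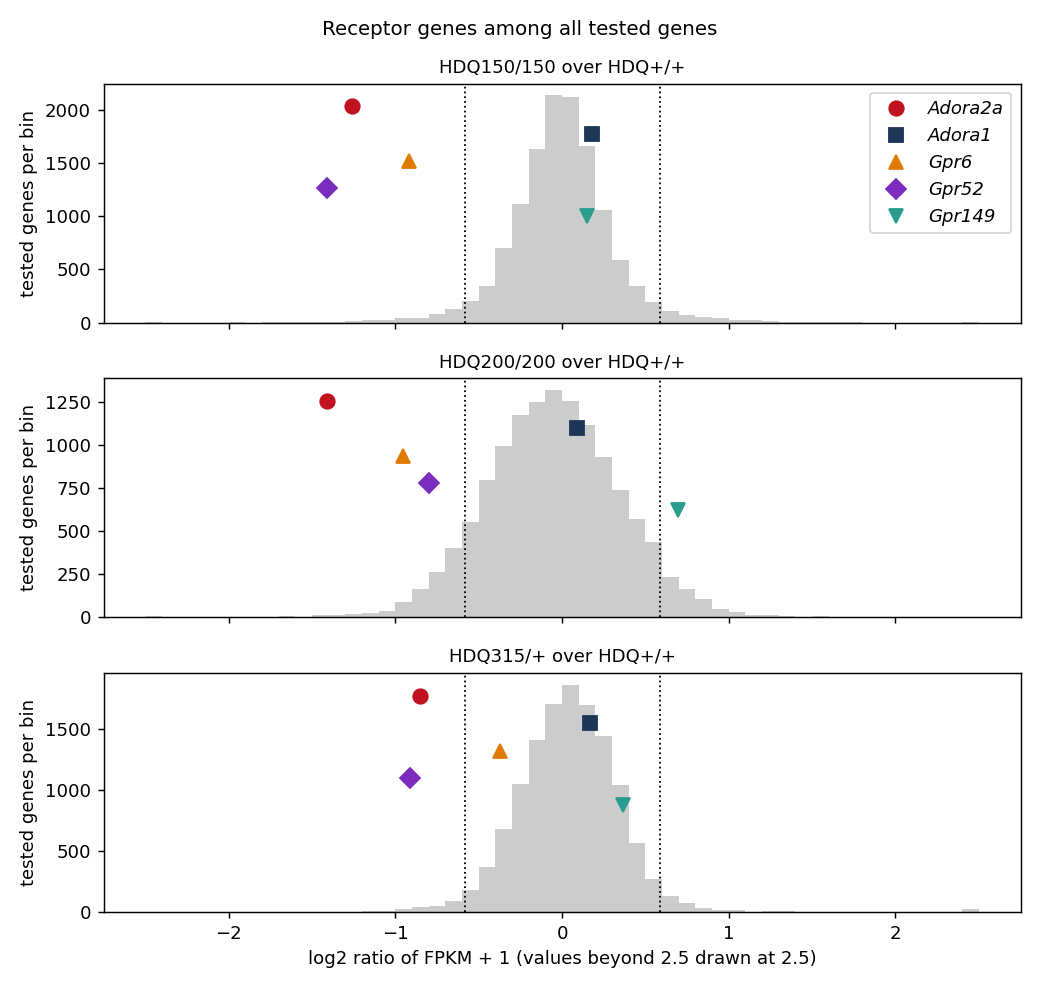
Number of the 12864 tested genes (grey bars, vertical axis) by log2 ratio of FPKM + 1 (horizontal axis, bins of 0.1) for HDQ150/150, HDQ200/200 and HDQ315/+ over HDQ+/+, with the receptor genes as coloured symbols whose height has no meaning and dotted lines at 1.5-fold. Adora2a and Gpr52 lie left of the line in all 3 panels (−1.41 to −0.80), Gpr6 in the upper 2, and Adora1 within the bulk of genes in each (0.09 to 0.18).

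Between mutants, few differences among the receptor genes reached the fold size. HDQ200/200 against HDQ150/150 had 1 gene past it, Gpr52, which was higher at 21.9 against 13.999 FPKM (log2 ratio 0.61), where 7.62% of the tested genes were higher and 18.4% passed in either direction. Gpr149 lay just under it, at 2.95 against 1.70 FPKM (log2 ratio 0.55). On scaled counts the call moved to the other gene: the Gpr52 ratio was 1.37 (1.27 to 1.49), under the fold size, and the Gpr149 ratio 1.68 (1.35 to 2.09), past it. Rabgap1l was also higher in that comparison (0.70). HDQ315/+ against HDQ150/150 had none of the 5 past the fold size, where 4.5% of tested genes were (2.53% higher and 1.97% lower); Adora2a, Gpr6 and Gpr52 were all above HDQ150/150, with log2 ratios of 0.41, 0.55 and 0.50. HDQ315/+ against HDQ200/200 had none either, where 29.2% of tested genes passed, Adora2a at 0.56 and Gpr6 at 0.58 lying just under the fold size and Gpr52 at −0.11. On scaled counts Adora2a (1.52, 1.46 to 1.58) and Gpr6 (1.68, 1.57 to 1.8004) were past it.

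The 3 lower genes did not keep fixed proportions to one another in the deposited FPKM. The proportions are not corrected for transcript length. That correction moved the HDQ200/200 log2 ratio of Gpr6 from −0.95 to −0.80 and that of Gpr52 from −0.80 to −0.77. The FPKM of Gpr6 relative to Gpr52 was 1.74 in HDQ150/150 (1.60 to 1.90), 1.09 in HDQ200/200 (1.02 to 1.17) and 1.79 in HDQ315/+ (1.67 to 1.93), against 1.21 in HDQ+/+ (1.16 to 1.27). Relative to Adora2a, Gpr6 stood at 0.424 in HDQ150/150 (0.396 to 0.453), 0.461 in HDQ200/200 (0.434 to 0.490) and 0.471 in HDQ315/+ (0.447 to 0.497), against 0.338 in HDQ+/+ (0.326 to 0.351). Gpr6 thus stood higher relative to Adora2a in each mutant library, with intervals apart from the wild type. Gpr52 relative to Adora2a was 0.243 in HDQ150/150 (0.226 to 0.261), 0.423 in HDQ200/200 (0.401 to 0.447) and 0.263 in HDQ315/+ (0.247 to 0.279), against 0.279 in HDQ+/+ (0.269 to 0.289). It was higher than the wild type in HDQ200/200 and lower in HDQ150/150, and HDQ315/+ overlapped the wild type.

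Drd2, which encodes the D2 dopamine receptor of the same indirect pathway neurons, was also highest in the wild type. It stood at 42.9 FPKM in HDQ150/150, 50.8 in HDQ200/200 and 62.1 in HDQ315/+, against 85.5 FPKM in HDQ+/+. The ratio of Adora2a to Drd2 was 1.34 in HDQ150/150 (1.27 to 1.42), 1.02 in HDQ200/200 (0.971 to 1.06) and 1.24 in HDQ315/+ (1.18 to 1.29), against 1.63 in HDQ+/+ (1.58 to 1.68). Against Penk, the other abundant indirect pathway gene, the order differed: Adora2a to Penk was 0.189 in HDQ150/150 (0.182 to 0.196), 0.209 in HDQ200/200 (0.203 to 0.216) and 0.135 in HDQ315/+ (0.131 to 0.139), against 0.135 in HDQ+/+ (0.133 to 0.138). Adora2a was thus lower relative to Drd2 in each mutant, but higher relative to Penk in both homozygous libraries and level with it in HDQ315/+. Gpr6 to Drd2 was 0.570, 0.469 and 0.582 in the mutants, against 0.551 in HDQ+/+, and only the HDQ200/200 interval (0.440 to 0.4997) lay apart from the wild type (0.528 to 0.575). Gpr52 to Drd2 was 0.326, 0.430 and 0.324 against 0.454, with HDQ200/200 (0.406 to 0.456) overlapping the wild type (0.436 to 0.473). None of these ratios was corrected for transcript length.

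**Figure D3:**
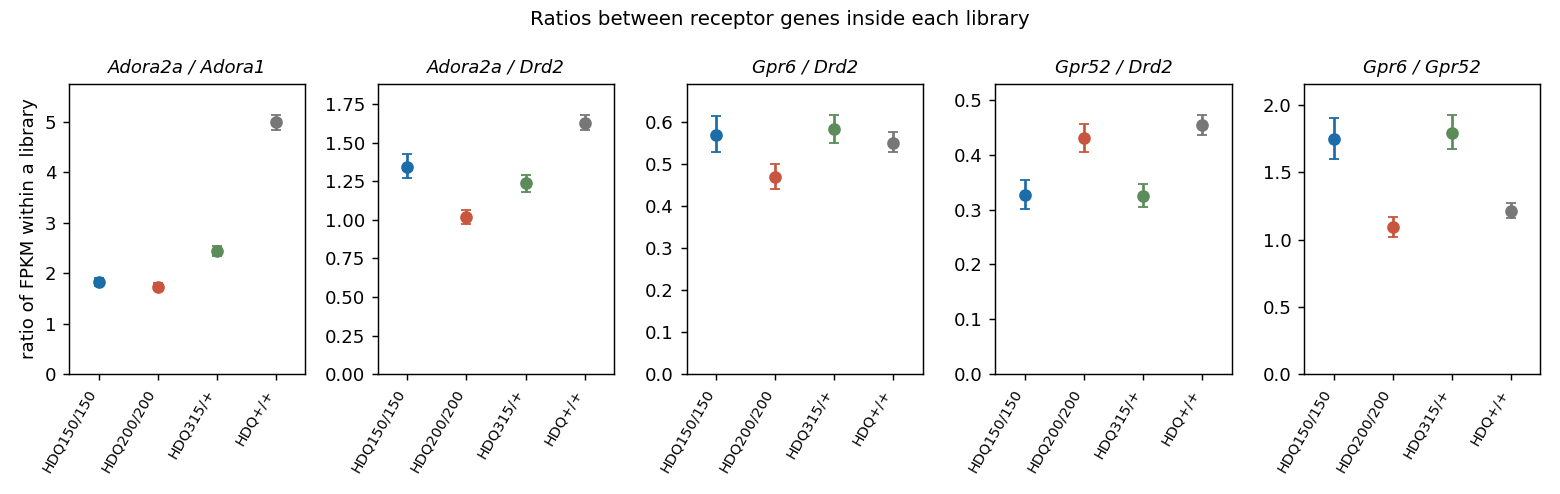
Ratio of FPKM between pairs of genes inside a library (vertical axis, from 0, separate for each pair) for HDQ150/150, HDQ200/200, HDQ315/+ and HDQ+/+ (horizontal axis); points are 1 library and error bars 95% intervals for counting error. Adora2a to Adora1 is 4.99 in HDQ+/+ and at most 2.44 in the mutants, while Gpr6 to Drd2 stays between 0.469 and 0.582.

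Other projection neuron genes moved in the same libraries. Of all tested genes, 3.34%, 8.8% and 2.13% were lower and 2.99%, 5.38% and 2.92% higher in HDQ150/150, HDQ200/200 and HDQ315/+. These shares are the background for each count here. Of the 17 shared projection neuron markers, 15 were lower in HDQ150/150, 10 in HDQ200/200 and 7 in HDQ315/+, and none was higher. In HDQ150/150, HDQ200/200 and HDQ315/+ their summed level was 1927, 2086 and 2674 FPKM, against 3919 FPKM in HDQ+/+. Of 5 indirect pathway markers other than the receptor genes, 2, 2 and 1 were lower and none higher, with sums of 377, 326 and 659 against 1143 FPKM. Most of that sum is Penk, the enkephalin precursor gene, at 305, 247 and 570 FPKM against 1030 FPKM, while Sp9 (−0.25, −0.26 and −0.02), Grik3 and Plxdc1 did not reach the fold size. Of 9 direct pathway markers 5, 6 and 3 were lower and none higher, with sums of 324, 314 and 460 against 533 FPKM, mostly the substance P precursor gene Tac1 (200.3, 164 and 298 against 286 FPKM). In bulk tissue fewer cells of a type and less RNA per cell cannot be told apart.

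Cortical markers, read here because Adora1 is also expressed by cortical neurons, were higher for 10 of 11 genes in HDQ150/150, 8 in HDQ200/200 and 2 in HDQ315/+, and lower for 0, 1 and 2. Shares of all tested genes, the background for the cortical and thalamic counts, were 2.99%, 5.38% and 2.92% higher and 3.34%, 8.8% and 2.13% lower. Most of the cortical sum is Nrgn, at 928, 471 and 811 FPKM against 853 FPKM. Slc17a7, the vesicular glutamate transporter gene of cortical neurons, stood at 199, 106 and 71.7 FPKM against 57.0 FPKM. Of 8 thalamic markers 1, 2 and 7 were higher and none lower, Prkcd standing at 2.98, 3.65 and 35.5 FPKM against 3.36 FPKM, and all 8 were above 0 in each library. The part of neighbouring tissue in the level of Adora1, or in those of the other receptor genes, was not tested.

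The nearest genes by pattern were taken as those with the smallest Euclidean distance over the 3 log2 ratios to HDQ+/+, a description resting on 4 libraries with a shared wild type. Nearest to Gpr52 were Drd1a, the D1 dopamine receptor gene (distance 0.09), the phosphodiesterase gene Pde7b (0.14) and Rps6ka5 (0.27). Drd1a stood at 32.7, 51.5 and 44.7 FPKM in HDQ150/150, HDQ200/200 and HDQ315/+, against 85.9 FPKM in HDQ+/+, an order of libraries shared with Gpr52. Nearest to Adora2a were Ace (0.16), Rdh5 (0.23) and Otx2 (0.26), with Ace at 4.32, 4.28 and 5.68 FPKM against 11.8 FPKM. Otx2 is itself 1 of the choroid plexus markers. It stood at 0.465, 0.667 and 1.33 FPKM against 3.14 FPKM. The scale of FPKM + 1 understates changes of genes that low, so Otx2 is near Adora2a on that scale and not in proportion. The same holds for Rdh5, at 2.15, 1.33 and 3.05 FPKM against 6.28 FPKM.

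Nearest to Gpr6 were Rph3al (0.06), Col6a4 (0.08) and Serpinb1b (0.09), all at lower levels, Rph3al at 1.74, 1.77 and 3.21 FPKM against 4.39 FPKM. At such levels the scale of FPKM + 1 shrinks their changes, so they too are near on that scale and not in proportion. Nearest to Gpr149 were Usp54 (0.08), Rnf152 (0.10) and Rad18 (0.11). For Adora1, Wdr12 (0.0042), Cd53 (0.015) and 2610507I01Rik (0.025) were nearest, but 907 tested genes lay within 0.2 of it, against 1 for Adora2a, 14 for Gpr6, 2 for Gpr52 and 18 for Gpr149. The flat pattern of Adora1 was common and the patterns of Adora2a and Gpr52 were rare at that distance. Most tested genes lie near no change, so these counts restate the size of the ratios and are not a separate result.

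Among the other adenosine receptor genes, Adora2b, which encodes the low-affinity A2B receptor, was level at 1.79, 1.78 and 2.12 FPKM in HDQ150/150, HDQ200/200 and HDQ315/+, against 1.74 FPKM in HDQ+/+. Adora3 was under the filter, at 0.642, 0.771 and 0.707 against 0.861 FPKM. Of 21 listed genes that make, carry or remove adenosine, 13 passed the filter, of which 1 was lower in HDQ150/150, 1 in HDQ200/200 and none in HDQ315/+, and none was higher. Their medians were −0.18, −0.06 and −0.04. Since 6.34%, 14.2% and 5.05% of all tested genes passed the fold size in these comparisons, counts this low in 13 genes are near the background and are not a result about adenosine supply. The lower gene was Slc29a4, which encodes a transporter of monoamines and adenosine, at 1.66 and 1.32 FPKM in HDQ150/150 and HDQ200/200, against 4.12 FPKM in HDQ+/+ (−0.95 and −1.15), with 3.88 FPKM in HDQ315/+ (−0.07). Adk, which encodes adenosine kinase, the main enzyme of adenosine removal in the brain, stood at 41.3, 34.8 and 44.6 FPKM against 36.1 FPKM. Nt5e, which encodes the enzyme that forms extracellular adenosine from AMP, stood at 3.26, 4.13 and 3.802 FPKM against 4.10 FPKM.

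The cyclic AMP pathway below these receptors was mixed. Of 18 genes of stimulatory G protein and cyclic AMP signalling, the numbers higher were 3, 2 and 2 and the numbers lower 2, 2 and 1 in HDQ150/150, HDQ200/200 and HDQ315/+, where 6.34%, 14.2% and 5.05% of all tested genes passed in either direction. The medians were −0.00068, 0.12 and −0.02. Adcy5 and Gnal, which are among the genes counted lower here, are also shared projection neuron markers and are counted above. Adcy5, the main adenylyl cyclase of striatal projection neurons, was lower in all 3 mutants, at 83.3, 118 and 98.3 FPKM against 184 FPKM (−1.14, −0.64 and −0.90). Adcy1, a calcium-stimulated cyclase, was higher in HDQ150/150 and HDQ200/200, at 25.4 and 36.7 FPKM against 15.7 FPKM (0.66 and 1.17), with 17.8 FPKM in HDQ315/+. Gnas, which encodes the widely expressed stimulatory alpha subunit, was higher in HDQ150/150 and HDQ315/+, at 666 and 640 FPKM against 395 FPKM (0.75 and 0.69), and stood at 406 FPKM in HDQ200/200. Gnal, which encodes the olfactory-type stimulatory subunit that couples A2A in the striatum, stood at 56.3, 90.4 and 62.3 FPKM against 85.1 FPKM, past the fold size only in HDQ150/150 (−0.59). None of the 5 inhibitory alpha subunit genes, through which A1 acts, reached the fold size in any mutant, with medians of 0.08, 0.21 and −0.09. At those background shares a count of 0 among 5 genes is not a result about the subunits.

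The list of receptors described in complexes with A2A or A1 held Drd2, Drd1a, Cnr1 and Grm5. All 4 were lower in HDQ150/150, 3 in HDQ200/200 and 2 in HDQ315/+, where 3.34%, 8.8% and 2.13% of all tested genes were lower. Drd2 and Drd1a are also projection neuron markers and are counted above. Cnr1, which encodes the CB1 cannabinoid receptor, stood at 29.1, 50.2 and 29.8 FPKM against 82.7 FPKM (−1.48, −0.71 and −1.44), and Drd1a fell in all 3 mutants as well. Drd2 was under the fold size in HDQ315/+ (−0.45). Grm5 reached it only in HDQ150/150 (−0.81), against −0.10 in HDQ200/200 and −0.48 in HDQ315/+.

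Other receptor genes with Gpr symbols showed no common direction. Of 39 such class A receptors 29 passed the filter, of which 2, 3 and 1 were higher and 4, 5 and 2 lower in the same order of mutants, against the same background of 6.34%, 14.2% and 5.05%. The medians were 0.11, 0.03 and 0.02. Gpr139, an orphan receptor of the striatum and habenula, was lower in all 3 mutants, at 1.61, 2.92 and 1.78 FPKM against 5.16 FPKM (−1.24, −0.65 and −1.15). Gpr83 was lower in HDQ150/150 and HDQ200/200 (−0.92 and −0.79; −0.49 in HDQ315/+), while Gpr22 was higher in them (0.63 and 0.76; 0.53 in HDQ315/+). Gpr12 and Gpr3, the closest relatives of Gpr6, stood at 12.4, 13.4 and 18.8 FPKM against 19.4 FPKM and at 5.36, 3.32 and 3.86 FPKM against 4.27 FPKM, so that Gpr12 reached the fold size in HDQ150/150 only (−0.61) and Gpr3 in none. Gpr21, the closest relative of Gpr52, was under the fold size in each mutant (log2 ratios 0.15, 0.37 and −0.38).

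**Figure D4:**
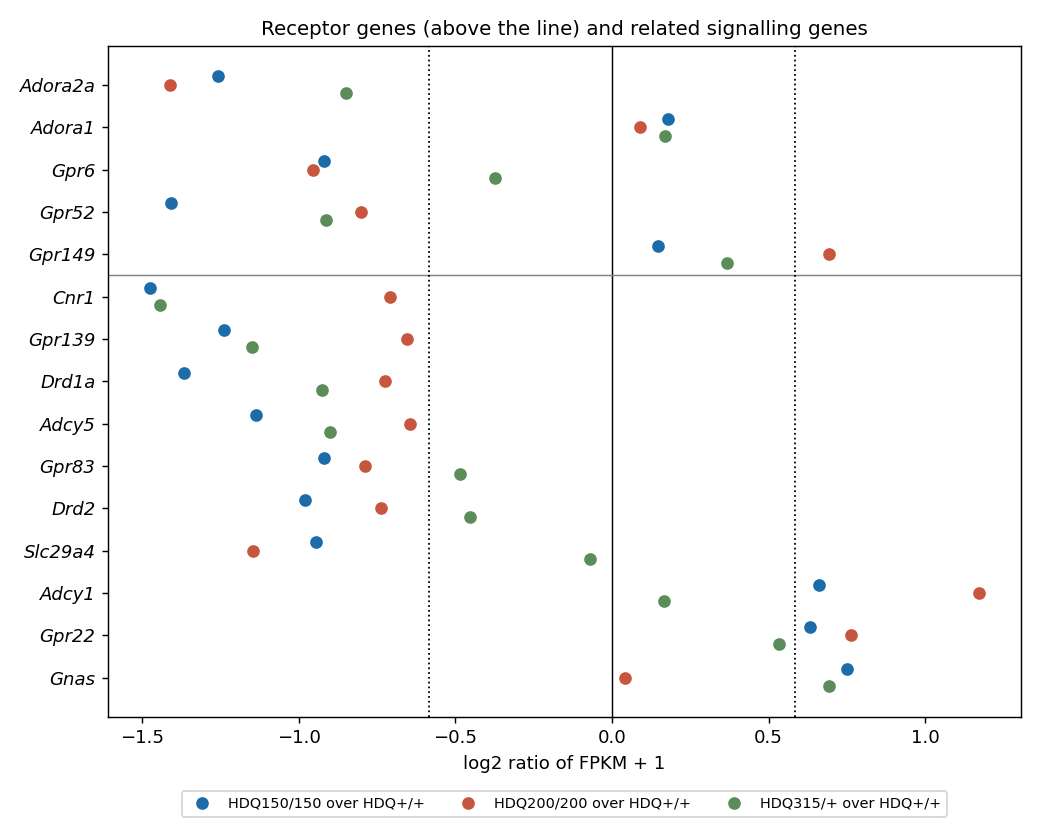
Log2 ratio of FPKM + 1 over HDQ+/+ (horizontal axis) for HDQ150/150, HDQ200/200 and HDQ315/+ (points, 1 library each) in the receptor genes, above the grey line, and in 10 genes of the related lists past 1.5-fold (dotted lines) in at least 2 mutants, below it. Cnr1, Gpr139, Drd1a and Adcy5 lie left of the line in all 3 mutants, as Adora2a and Gpr52 do, whereas Adcy1, Gpr22 and Gnas lie right of it in 2 of 3.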

How the data were processed

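The labels assign 1 library to each of 4 genotypes, and each value column was matched to its library by name. Per the submitters' processing notes the build was mm10 and the tools bcl2fastq 1.8.4, TopHat2 2.0.11, Bowtie2 2.1.0, Cufflinks 2.1.1, TopHat, Cuffdiff and Cuffnorm, with no role or order given; annotation, strandedness and scaling are not stated. FPKM is the authors' unit, per the file headers. Their deposited count columns hold a scaled signal, not whole reads: in each library 98.0% to 98.3% of the values above 0 fell, to within 0.05, on multiples of a common step (0.781 to 1.27), and division by that step gave the fragments behind a gene. Features with no name (5934) and genes of short non-coding RNA (706) were not tested.

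Changes are differences of log2(FPKM + 1) from deposited FPKM, called at 1.5-fold; no test was possible. Intervals of ratios are exact Clopper-Pearson intervals on fragments, and intervals of levels are exact Poisson intervals, at 95%. Transcript length was taken from scaled count per FPKM and GC content from GENCODE M21 transcripts (99.3% of tested genes, 4 of the 5 receptor genes); both trends were fitted by lowess (fraction 0.3; statsmodels 0.14.6, SciPy 1.17.1, Python 3.11.15). Calling and length correction were run on Poisson counts simulated from the HDQ+/+ library, with planted changes and no spread between animals. The GC correction was not run on simulated data. Named were the 5 receptor genes, genes of each pathway list past 1.5-fold in at least 2 mutants (at most 5), the 3 tested genes nearest in pattern, and the most abundant gene of each marker list with Drd2, Penk, Slc17a7, Prkcd and Ttr. Genes outside this rule (Adora2b, Adora3, Adk, Nt5e, Gnal, Grm5, Gpr3, Gpr12, Gpr21, Sp9, Grik3, Plxdc1, Rabgap1l, Mybph, Htt, P2ry12, Calb2 and Alb) were named after their values were seen. The members and lists were chosen with earlier results of these data known. A gene of the related lists is counted in them but not reported here by name.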

Additional observations from a re-analysis of the deposited data

How the results depend on the processing

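No paired analysis was possible because each genotype has 1 library. No replicate could be left out for the same reason. At 1.5-fold, Adora2a and Gpr52 were lower than HDQ+/+ in all 3 mutants, and Gpr6 in both homozygous mutants, under each other pseudocount, filter, scaling and correction that gave a value; Gpr52 had no GC content, so counts and medians over the 5 genes were not computed for that correction. At a 2-fold call 2 receptor genes passed in HDQ150/150 (Adora2a and Gpr52), 1 in HDQ200/200 (Adora2a) and 0 in HDQ315/+. With a mean FPKM of at least 10, which drops Gpr149, the median of the receptor genes was −1.09 in HDQ150/150 and −0.61 in HDQ315/+ over HDQ+/+, and 0.32 in HDQ315/+ over HDQ200/200. Scaled counts gave −0.93 in HDQ200/200 over HDQ+/+, and length correction −0.47 in HDQ315/+ over HDQ+/+. For HDQ200/200 over HDQ150/150, 2 genes (Gpr52 and Gpr149) passed with median centring, with a pseudocount of 0.1, with the upper quartile or at a 1.3-fold call and 0 with a 2-fold call; on scaled counts the 1 gene called was Gpr149 (0.74) in place of Gpr52 (0.46), and the median was 0.15 after length correction. For HDQ315/+ over HDQ150/150, 3 passed at 1.3-fold and 1 on scaled counts, with medians of 0.34 (upper quartile) and 0.33 (scaled counts). For HDQ315/+ over HDQ200/200, 1 passed with a pseudocount of 0.1 and 2 on scaled counts or at 1.3-fold, with medians of −0.035 (median centring), −0.069 (upper quartile) and 0.33 (length correction). The cause was not tested. Depth limits Gpr149 most, with 121 to 288 fragments.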

Other observations

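Of 15 receptor genes for ATP and related nucleotides, the P2 family, 8 passed the filter and none reached 1.5-fold in any mutant, a count near the 6.34%, 14.2% and 5.05% of all tested genes that did. Their log2 ratios had medians of 0.15, 0.07 and 0.17 in HDQ150/150, HDQ200/200 and HDQ315/+ over HDQ+/+. P2ry12, a microglial ADP receptor, stood at 25.9, 22.1 and 22.6 FPKM against 21.3 FPKM.

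Of all tested genes, 6.34%, 14.2% and 5.05% passed the fold size in HDQ150/150, HDQ200/200 and HDQ315/+, the background for the marker counts below. Among 9 striatal interneuron markers the numbers higher were 1, 1 and 2 and the numbers lower 2, 3 and 1 in the same order of mutants. Sst was the most abundant (419, 209.9 and 423 FPKM against 333 FPKM). Of the 2 higher in HDQ315/+, Calb2 (3.38, 2.36 and 20.3 FPKM against 2.64 FPKM) is also on the thalamic list, of which 7 of 8 were higher in that library. Of 8 markers each, astrocytes had 0, 2 and 0 higher and 0, 0 and 1 lower, oligodendrocytes 0 higher and 1, 0 and 2 lower, and microglia 0 higher and 0, 2 and 1 lower. At those background shares, counts of 0 to 2 among 8 genes are not a result about these cell types. Their most abundant genes stood at 353, 231 and 407 against 344 FPKM (Aldoc), 1875, 1458 and 1967 against 1975 FPKM (Mbp) and 41.7, 24.2 and 43.3 against 40.9 FPKM (C1qa). Of 8 liver markers 7 passed the filter, of which 5 were higher in HDQ315/+ and none in the other 2 mutants, while 1 was lower in each mutant (Ttr, also a choroid plexus marker, at 63.9, 49.2 and 305 against 1520 FPKM); Alb, the albumin gene, stood at 77.0 FPKM in HDQ315/+, against 0.132 FPKM in HDQ+/+.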
